A study of Mus musculus with 7 samples.

Results

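Transcripts of 9 autonomic receptor genes were measured in the left ventricle of mouse embryos: the alpha-1 adrenergic receptors Adra1a, Adra1b and Adra1d, the alpha-2 receptors Adra2a, Adra2b and Adra2c, the beta receptors Adrb1 and Adrb3, and the muscarinic acetylcholine receptor Chrm2. The 9 genes were listed by name and are 9 of the 23337 gene symbols of the count table. The group was chosen by name around Adra1d, which itself was selected on its higher counts in the libraries labelled mutant, so the values of all 9 in that comparison are given as a description and not as a test.

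Left ventricles were dissected at embryonic day 12.5, and poly(A) RNA was sequenced in 5 control and 2 mutant libraries. The Tbx5 genotype was Tbx5+/+ in the controls and Tbx5flox/flox in the mutants. Both groups carried the allele Gt(ROSA)26Sortm1(cre/ERT2)Tyj, which expresses the tamoxifen-activated recombinase CreERT2 from Rosa26, a locus active in most cell types, and the mothers of both were injected with tamoxifen 1 day before dissection. TBX5 is a T-box transcription factor needed for heart development, and the design compares left ventricular transcripts with and without its deletion. The labels give neither litter nor sex nor batch and do not state that embryos were from different litters; p-values therefore cover the spread between these samples, which may be technical.

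Adrenergic receptors are membrane proteins that respond to noradrenaline and adrenaline through G proteins. Alpha-1 receptors couple to Gq and phospholipase C, alpha-2 receptors couple to Gi, which lowers cyclic AMP, and beta receptors couple mainly to Gs, which raises it. In heart muscle the beta-1 receptor drives rate and force, whereas the M2 muscarinic receptor, the product of Chrm2, couples to Gi, opens GIRK potassium channels and slows the heart.

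The controls had library totals of 20385656 to 24440806 counts, and the mutants 20268208 and 22680280. Tbx5 itself was at 64.2 to 98.3 CPM (counts scaled to a common library total, after TMM normalization) in the controls and at 93.8 and 114 CPM in the mutants. Exons that the deletion leaves in place are counted too, so this does not check the genotypes, which are taken from the labels, and "mutant" means labelled mutant throughout. Cardiomyocyte markers were abundant in every library: the summed level of 9 was 26249.7 to 31489.6 CPM in the controls and 30768 to 35066 CPM in the mutants. Control replicates 1 and 3 had almost no Xist (0.689 and 1.09 CPM), the RNA of the inactive X chromosome, against 311 to 509 CPM in the 5 other libraries. In bulk tissue, fewer cells of a type and less RNA per cell cannot be told apart.

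The 9 receptor transcripts were all rare and spanned a wide range of levels. Levels are compared between genes as CPM per kilobase of annotated exon (GENCODE M21). In the controls Adrb1 was the most abundant, at 1.87 ± 0.173 CPM per kb (SD, n = 5), followed by Adra1b at 1.48 ± 0.359, Adrb3 at 1.17 ± 0.319 and Chrm2 at 0.754 ± 0.18 CPM per kb, each with n = 5. Adra1d came next in the controls at 0.405 ± 0.0948 CPM per kb (SD, n = 5), ahead of Adra2b at 0.22 ± 0.135 CPM per kb. The last 3 genes were close to the limit of detection: Adra2c at 0.036 ± 0.0159, Adra2a at 0.0133 ± 0.00585 and Adra1a at 0.0076 ± 0.00652 CPM per kb (SD, n = 5).

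Neighbours in this order overlapped in their control ranges in every pair but Adra2b and Adra2c. Each library measures both genes of a pair, so neighbours were compared by an exact two-sided sign-flip permutation test of the log2 ratio over the 7 libraries, where the smallest possible p is 0.0156. Of the 5 pairs with counts in every library, 0 passed after Benjamini-Hochberg adjustment over the 5, under which a pair at the smallest possible p cannot pass alone (adjusted p = 0.0781, exact test). The test measures how steady a ratio was over the libraries. An error in annotated exon length would be shared by all 7 libraries and lies outside it. Adrb3 was above Chrm2 in 7 of 7 libraries, by a log2 ratio of 0.70 ± 0.41 (SD, n = 7; exact p = 0.0156, adjusted p = 0.0521). Adrb1 was above Adra1b in 6 of 7, by 0.38 ± 0.30 (SD, n = 7; exact p = 0.0313, adjusted p = 0.0521). Adra1b and Adrb3 had an exact p of 0.266 (adjusted 0.332, n = 7). The other 2 of the 5 pairs hold Adra1d, which was selected on the mutant libraries, so no test is read from them: in the controls alone Chrm2 was above Adra1d in 4 of 5 and Adra1d above Adra2b in 4 of 5. Adjusted over the 3 pairs without Adra1d, a choice made after seeing the data, Adrb3 over Chrm2 and Adrb1 over Adra1b each had an adjusted p of 0.0469 by the same exact test. The order that set the pairs came from the 5 controls, which are also among the 7 libraries tested, so the test is not independent of it. Antisense exons cover 839 of the 3376 exon bases of Adrb3, so its level is uncertain. Between Adra2b and Adra2c the control ranges did not overlap, and the order held in 7 of 7 libraries, while Adra2c, Adra2a and Adra1a overlapped one another. The annotated Adra1d transcript is 1899 bases, of which 1686 are coding, so its per-length level depends on how little untranslated sequence the annotation gives it.

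**Figure D1:**
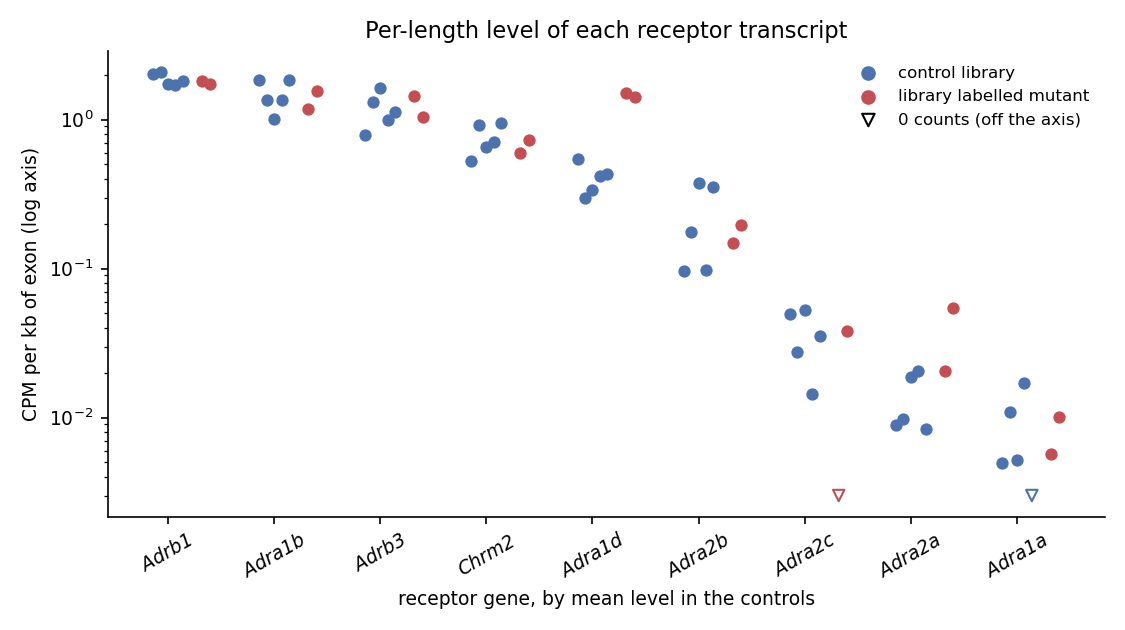
Level of each receptor transcript in CPM per kb of annotated exon, on a log axis, with genes ordered by their mean in the 5 controls; each point is 1 library, and open triangles mark 0 counts. Adrb1 leads in the controls at 1.87 CPM per kb, and Adra1d is the gene whose 2 mutant points lie far above its 5 control points.

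Adra1d encodes the alpha-1D receptor and lies on chromosome 2 at 131545850 to 131562283, minus strand, of GRCm38 (mm10). Values are given in replicate order here and below. The controls had 24, 12, 14, 16 and 20 Adra1d counts, and the mutants 58 and 62. Scaled to CPM these were 1.03, 0.569, 0.636, 0.792 and 0.814 in the controls and 2.87 and 2.71 in the mutants. The groups did not overlap: the lower mutant count was 58 and the highest control count 24. The means were 0.769 ± 0.18 CPM (SD, n = 5) and 2.79 ± 0.114 CPM (SD, n = 2).

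The Adra1d level was 3.60-fold higher, a log2 fold change of 1.85 (standard error, SE, 0.27; 95% interval 1.26 to 2.44). The authors' deposited table lists Adra1d as well, with a log fold change of 1.84 and a false discovery rate of 1.03e-06. Of the 9 genes, 6 passed the filter on low counts, and of these Adra1d alone passed an adjusted p of 0.05, at 0.0124 (edgeR quasi-likelihood test, Benjamini-Hochberg over 14691 genes). Over all genes tested, 1.36% passed in either direction and 0.463% as higher. Because Adra1d was chosen for this rise, that call selected it and lends it no further support. Without mutant replicate 2 the call was lost, with an edgeR quasi-likelihood adjusted p of 0.103 and a log2 fold change of 1.90. Over all 17 alternatives the adjusted p ran from 3.2e-05 to 0.103 and the log2 fold change from 1.77 to 1.98.

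Markers of other cell types differed between the same libraries, and no marker was at 0 in every library. Over all 14691 genes tested, 132 were called lower by the edgeR test, and the marker counts below stand beside that. The summed level of 9 markers of cushion mesenchyme and fibroblasts was 2545 to 4400.5 CPM in the controls and 1519 and 1534 CPM in the mutants, with 7 of the 9 called lower. The 8 macrophage markers summed to 172 to 236 CPM against 154 and 107 CPM, with 3 called lower, and the 8 epicardial markers to 381 to 550.1 CPM against 391 and 278 CPM, with 1 called lower. The 11 smooth muscle and pericyte markers summed to 2163 to 3209 CPM in the controls and 3729 and 3215 CPM in the mutants. Both mutant sums lay above every control, that of mutant replicate 2 only just. Of those 11, 0 were called, and 5 had a positive and 6 a negative log2 fold change. It was 0.61 for Acta2, 0.33 for Tagln and -1.52 for Myh11, a smooth muscle myosin. Acta2 alone was at 717 to 1662 CPM in the controls and 2081 and 1606 CPM in the mutants. Myh11 was at 0.247 to 10.03 CPM in the controls and 1.04 and 1.22 CPM in the mutants. The 9 endothelial and endocardial markers overlapped between the groups, at 780 to 1143 CPM and 695 and 1088 CPM, as did the 7 erythroid markers (4259 to 9555 CPM and 5169 and 5431 CPM) and the 7 Schwann cell and neural crest markers (10.9 to 17.0 CPM and 12.9 and 12.5 CPM). The part of these cell types in the Adra1d difference was not tested.

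Adra1d shares only short stretches with its paralogs. Libraries were read at 50 bases, and the longest identical run between the coding sequences of Adra1d and either alpha-1 paralog was 20 bases. The windows of 50 bases around these runs are shown because they hold the longest stretch that Adra1d shares with each; capitals mark the bases that differ within a pair. The first pair lies in chr2:131546456-131546505 (Adra1d, minus strand) and chr11:43776375-43776424 (Adra1b, minus strand), and the second in chr2:131561147-131561196 (Adra1d, minus strand) and chr14:66638340-66638389 (Adra1a, plus strand), all GRCm38 coding exon sequence from GENCODE M21, read 5′ to 3′ on the gene's strand.
Adra1d, against Adra1b: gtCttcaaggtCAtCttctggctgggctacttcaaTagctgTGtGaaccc
Adra1b, against Adra1d: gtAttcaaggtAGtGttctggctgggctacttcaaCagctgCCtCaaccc
Adra1d, against Adra1a: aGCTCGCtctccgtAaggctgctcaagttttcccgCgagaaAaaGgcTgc
Adra1a, against Adra1d: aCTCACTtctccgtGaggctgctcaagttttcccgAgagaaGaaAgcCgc
The windows held 8 mismatches for Adra1b and 11 for Adra1a. Over all ungapped windows of 50 coding bases, the fewest mismatches were 7 between Adra1d and Adra1b, 6 between Adra1d and Adra1a, and 7 between Adra1a and Adra1b. Among all pairs of the 9 genes the longest identical coding run was 30 bases, between Adrb1 and Adrb3. The library kit does not mark strand, and 147 of the 1899 exon bases of Adra1d overlap the antisense gene Gm14285, so reads from there could not be separated.

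Of the other alpha-1 receptor genes, Adra1b overlapped between the groups and Adra1a was too rare to test. Adra1b, on chromosome 11, encodes the alpha-1B receptor and was counted 144, 97, 75, 93 and 154 times in the controls, against 80 and 121 in the mutants. Both mutant values lay inside the control range. In CPM this was 5.01 ± 1.21 (SD, n = 5) against 4.63 ± 0.94 (SD, n = 2), giving a log2 fold change of -0.12 (SE 0.25) and its 95% interval of -0.67 to 0.44. Adra1a, on chromosome 14, encodes the alpha-1A receptor and had 1, 2, 1, 3 and 0 counts in the controls and 1 and 2 in the mutants, too few to be tested. Its 0 in control replicate 5 allows a level of up to 0.122 CPM, taking 3 counts as the limit. A difference in Adra1a was not detectable at this depth.

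The make-up of the alpha-1 transcripts differed accordingly. Per length, Adra1d made up 22.8%, 17.9%, 24.9%, 23.2% and 18.8% of the summed alpha-1 level in the controls, against 56.2% and 47.6% in the mutants. Adra1b made up nearly all of the rest. The summed alpha-1 level was 1.35 to 2.38 CPM per kb in the controls and 2.69 and 3.003 CPM per kb in the mutants. By mean level Adra1d ranked 5 among the 9 receptor genes in the controls and 2 in the mutants, behind Adrb1. Shares and ranks per length rest on the annotated exon lengths, 1899 bases for Adra1d and 3382 for Adra1b. In counts Adra1d stayed below Adra1b in both mutants, at 58 against 80 and 62 against 121.

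Ratios to another receptor within the same library do not depend on the scaling of the libraries. Per 100 Adra1b counts there were 12.4 to 18.7 Adra1d counts in the controls and 72.5 and 51.2 in the mutants. Per 100 Adrb1 counts there were 8.05 to 15.1 in the controls and 46.8 and 45.9 in the mutants. Against Adrb3 and Chrm2 the control ranges were wider, 11.6 to 38.7 and 10.3 to 32.4 Adra1d counts per 100, because control replicate 1 was low in both and high in Adra1d. The mutants were at 59.2 and 77.5 per 100 Adrb3 counts and at 79.5 and 61.4 per 100 Chrm2 counts. With each of these 4 references, both mutant libraries lay above every control. All 4 ratios use the same Adra1d counts, on which the gene was selected, so they describe that rise and lend it no further support.

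**Figure D2:**
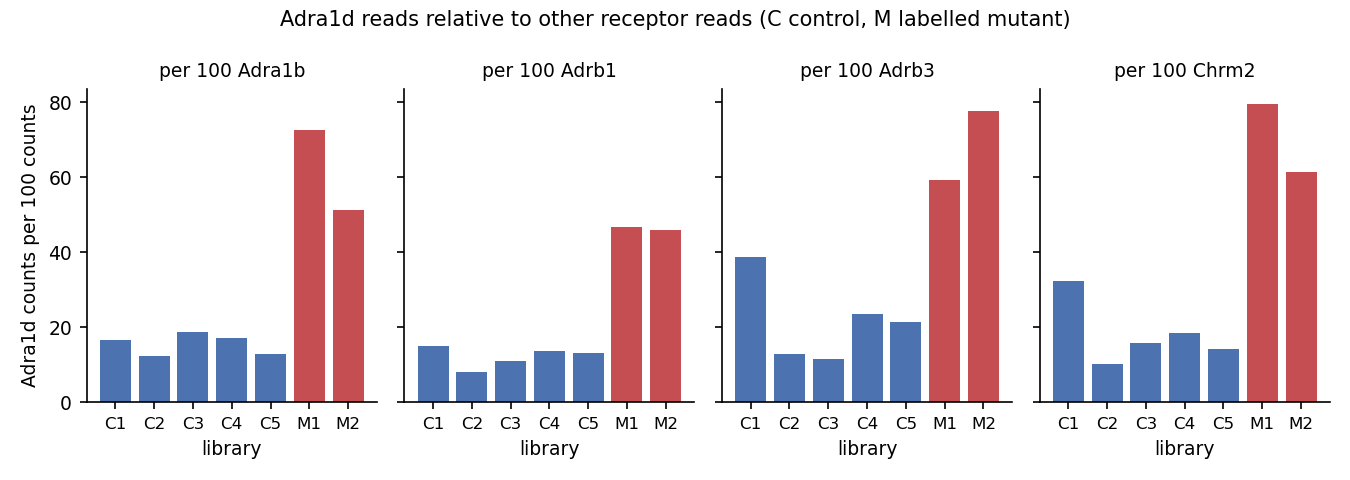
Adra1d counts per 100 counts of Adra1b, Adrb1, Adrb3 and Chrm2 in each library, control replicates C1 to C5 in blue and mutant replicates M1 and M2 in red; bars start at 0 and each is 1 library, so there are no error bars. In every panel both mutant bars stand above all 5 control bars, for example 72.5 and 51.2 against at most 18.7 per 100 Adra1b counts.

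The alpha-2 receptor genes were low, and 2 of the 3 were too rare to test. Adra2b, on chromosome 2, encodes the alpha-2B receptor and was counted 9, 15, 33, 8 and 35 times in the controls, against 12 and 18 in the mutants. Control replicates 3 and 5 stood above all other libraries, and both mutants lay inside the control range. Its log2 fold change was -0.36 (SE 0.57), with a 95% interval of -1.62 to 0.91 that still allows a substantial difference in either direction. Adra2a, on chromosome 19, had 1, 1, 2, 2 and 1 counts in the controls and 2 and 6 in the mutants. In CPM both mutants, at 0.0991 and 0.262, lay above the highest control at 0.0990, a gap of less than 1 count between that control and the lower mutant. Adra2c, on chromosome 5, had 4, 2, 4, 1 and 3 counts in the controls and 0 and 3 in the mutants, where the 0 allows up to 0.149 CPM. Adra2a and Adra2c did not pass the filter on low counts, and no fold is given for them.

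Adrb1, on chromosome 19, encodes the beta-1 receptor and was the most abundant of the 9 per length. The controls had 159, 149, 129, 117 and 151 counts, and the mutants 124 and 135. This was 6.34 ± 0.584 CPM (SD, n = 5) against 6.02 ± 0.168 CPM (SD, n = 2), with overlapping groups. The log2 fold change was -0.07 (SE 0.15), with a 95% interval of -0.41 to 0.26. Adrb3, on chromosome 8, encodes the beta-3 receptor and had 62, 94, 121, 68 and 94 counts in the controls and 98 and 80 in the mutants, again inside the control range. Its log2 fold change was 0.07 (SE 0.27), with an interval of -0.53 to 0.67. Exons of the antisense gene Gm45470 cover 839 of its 3376 exon bases, so part of the Adrb3 counts is uncertain without strand.

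Chrm2, on chromosome 6, was counted 74, 117, 88, 87 and 142 times in the controls, against 73 and 101 in the mutants. The means were 4.56 ± 1.09 CPM (SD, n = 5) and 4.02 ± 0.567 CPM (SD, n = 2), and the groups overlapped. The log2 fold change was -0.18 (SE 0.25), with a 95% interval of -0.73 to 0.37. An antisense gene, 9330158H04Rik, overlaps 142 of the 6053 exon bases of Chrm2 and had 36 to 54 counts in the controls and 27 and 19 in the mutants (log2 fold change -0.81, SE 0.28, edgeR quasi-likelihood adjusted p = 0.168).

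Apart from Adra1d, the 5 receptor genes that passed the filter had log2 fold changes of -0.36 to 0.07 and edgeR quasi-likelihood adjusted p of 0.745 to 0.916. Both mutants lay outside the control range in 0 of the 5, beside 20.2% of all genes tested, and 5 genes are too few to set apart from that share. The median log2 fold change of the 6 genes that passed was -0.095, beside -0.0080 over all genes tested. A p that misses the threshold does not show equal levels, and the intervals above give the sizes that remain possible.

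**Figure D3:**
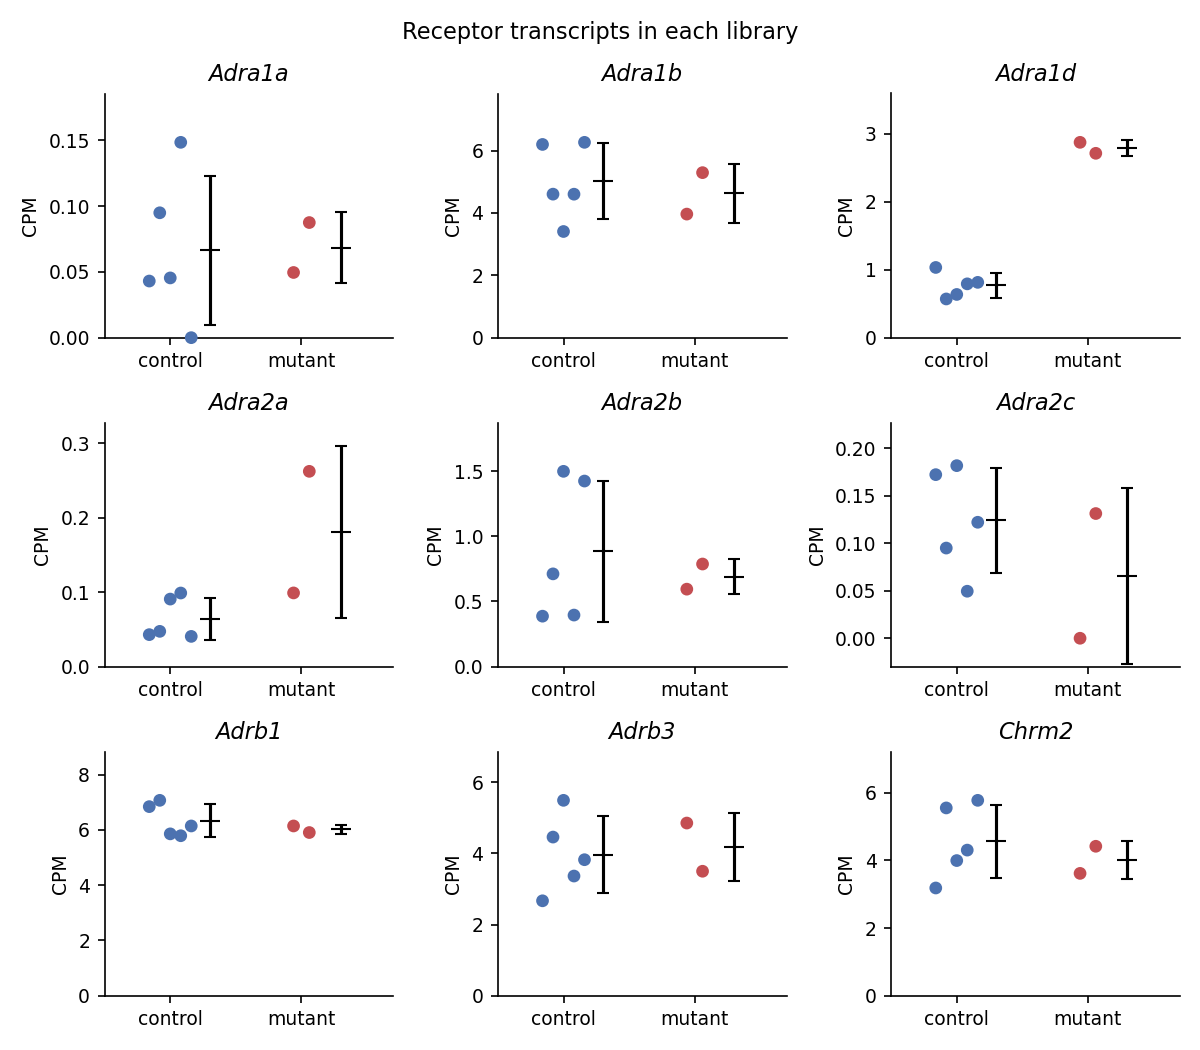
CPM of each of the 9 receptor genes in every library (points), with the mean and SD of each group drawn beside them (n = 5 controls, n = 2 mutants); each panel has its own linear axis. The 2 mutant points of Adra1d, 2.87 and 2.71 CPM, lie above the 5 control points, and in Adra1b, Adra2b, Adrb1, Adrb3 and Chrm2 the mutant points lie among the controls.

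The receptor genes differed in how much they varied between control libraries. Counting alone gives a coefficient of variation equal to the inverse square root of the mean count. In the controls the coefficient of Adrb1 was 9.2% where counting alone gives 8.42%, and that of Adra1d was 23.4% where counting gives 24.1%. Both thus varied about as much as counting requires. The coefficients of Adra1b (24.2%), Adrb3 (27.2%) and Chrm2 (23.9%) were well above their counting values of 9.42%, 10.7% and 9.92%. Adra2b had the highest coefficient of the 6 tested genes, 61.6% against 22.4% from counting. Control replicate 5 had the highest CPM of the controls for Adra1b and Chrm2 and was second for Adra2b, while Adrb3 was highest in control replicate 3.

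The genes whose profile over the 7 libraries was most like that of Adra1d were Naa40, Pdp1, Pcgf5, Grhl3 and Ddo. Likeness was the Pearson correlation of log2 CPM among 12220 genes, over libraries that share depth and group, and it is a description. The correlations were 0.979, 0.979, 0.978, 0.973 and 0.970, and 0.695, 0.764, 0.812, 0.817 and 0.872 over the 5 controls alone. The 5 genes were picked over libraries that include these controls, so the control values are no separate check. In the controls Adra1d varied about as much as counting alone requires (23.4% beside 24.1%), which also limits these correlations. Pdp1, a phosphatase of the pyruvate dehydrogenase complex, went from 19.9 ± 0.631 to 27.6 ± 0.695 CPM, and Grhl3, a grainyhead-like transcription factor, from 5.66 ± 0.651 to 9.68 ± 0.66 CPM (SD, n = 5 and n = 2). The profile of Chrm2 was most like those of Hnrnpr, Gimap9, Edem2, Tmem63a and Plxnb3 (0.958 to 0.927), and that of Adra1b most like those of Pmepa1, Sele, Ntn4, Notch4 and Atg10 (0.982 to 0.954).

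Around the receptors, 133 genes that make or remove their ligands or carry their signals were listed. They were chosen with earlier results of these data known, so shares of the list are a description. Of the 133 genes, 123 were tested. Of these, 1 was called higher and 1 lower by the edgeR test. That is 1.63% of the tested list beside 1.36% of all genes, and it rests on these 2 calls alone. With DESeq2 12 of the 123 were called, 5 higher and 7 lower. Over all genes DESeq2 called 785 of 14691 (5.34%), a smaller share. How the list compared with all genes thus depended on the test. Both mutants lay outside the control range in 29 of the 123, 13 above and 16 below, which is 23.6% beside the 20.2% of all genes. The median log2 fold change of the 123 was 0.0021. The gene called lower was Pkig, an inhibitor of protein kinase A (PKA), the kinase that cyclic AMP activates. Its values were 98.2, 96.9, 94.2, 75.0 and 90.6 CPM in the controls, against 61.1 and 54.1 CPM in the mutants, with no overlap (log2 fold change -0.66, SE 0.12, edgeR quasi-likelihood adjusted p = 0.0258). The gene called higher was Mybpc3, cardiac myosin binding protein C and a PKA substrate, at 3038 ± 179.5 CPM (SD, n = 5) against 4091 ± 182 CPM (SD, n = 2), with a log2 fold change of 0.43 (SE 0.09, edgeR quasi-likelihood adjusted p = 0.0486).

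Both calls were lost when some single libraries were left out, while the log2 fold change stayed at -0.75 to -0.56 for Pkig and 0.39 to 0.48 for Mybpc3. By the edgeR quasi-likelihood test Pkig was not called without control replicate 1 (adjusted p 0.0662), control replicate 2 (0.068) or mutant replicate 2 (0.245). Mybpc3 was not called without control replicate 1 (0.115), 2 (0.116), 3 (0.0867) or 4 (0.0512), nor without mutant replicate 1 (0.0671) or 2 (0.294), by the same test. Among the 5 libraries with Xist above 10 CPM neither was called, at 0.129 for Pkig and 0.26 for Mybpc3.

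No gene of ligand supply was called by the main edgeR test. Of 11 genes that make, transport or break down catecholamines, 9 were tested and 0 called, beside 1.36% of all genes tested. There were 5 positive and 4 negative values, with a median of 0.0037. Ddc, which encodes the decarboxylase that forms dopamine, was at 63.2, 52.0, 34.8, 38.1 and 97.3 CPM in the controls and 118 and 114 CPM in the mutants, all above the controls (log2 fold change 1.02, SE 0.33, edgeR quasi-likelihood adjusted p = 0.167). Without control replicate 5 Ddc was called, at an adjusted p of 0.032 by the same test. Over the 17 alternatives 0 to 3 of the catecholamine genes were called. With DESeq2 there were 2, 1 higher and 1 lower, and with the replicate block 3, 2 higher and 1 lower. Markers of autonomic neurons were few: the 11 markers summed to 8.87 to 12.9 CPM in the controls and 8.97 and 8.31 CPM in the mutants.

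For acetylcholine, 3 of 5 genes were tested and 0 called, too few to set apart from the 1.36% of all genes tested. Among the cholinesterases, the log2 fold change was -0.12 (SE 0.23) for Ache and 0.25 (SE 0.12) for Bche. Of the other muscarinic receptors, Chrm3 was at 0.507 ± 0.189 CPM (SD, n = 5) against 0.611 ± 0.373 CPM (SD, n = 2), and Chrm4 at 0.436 ± 0.176 against 0.318 ± 0.169 CPM with the same numbers of libraries. Neither was called, and Chrm1 and Chrm5 were too low to test.

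The listed signalling genes ranged widely in level. Over all 123 tested genes of the lists, the mean over the 7 libraries ran from 0.22 to 3339 CPM, with a median of 23.6 CPM, and the genes given by name are the called or the most abundant of each list. Of 22 G protein subunit genes 0 were called, with 9 positive and 13 negative values. Gnas, the Gs alpha subunit, was at 1451 ± 134 CPM (SD, n = 5) and 1438 ± 13.98 CPM (SD, n = 2), and Gnai2, a Gi alpha subunit, had a log2 fold change of -0.0091 (SE 0.10). Of 34 genes of the cyclic AMP pathway, Pkig alone was called, and Prkar1a, a regulatory subunit of PKA, was at 0.04 (SE 0.10). Of 21 genes downstream of Gq, 0 were called, with 14 positive and 7 negative values. In that list Prkd3, a protein kinase D, was at 0.05 (SE 0.08) and Dgkz, a diacylglycerol kinase, at 0.07 (SE 0.07). Of 18 tested kinases, arrestins and RGS proteins that switch receptors or G proteins off, 0 were called and 12 were negative, with a median of -0.13. Their lowest adjusted p was 0.0504 (edgeR quasi-likelihood test). Over all genes 1.36% were called, and these lists are too short to set apart from that share. DESeq2 called 5.34% of all genes. In these lists it called 1 G protein subunit gene and 1 cyclic AMP gene lower, 1 gene downstream of Gq higher and 2 of the 18 lower. Adrbk1, the receptor kinase GRK2, was at 0.0044 (SE 0.08), and Rgs3, a GTPase activator, at 0.12 (SE 0.13).

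**Figure D4:**
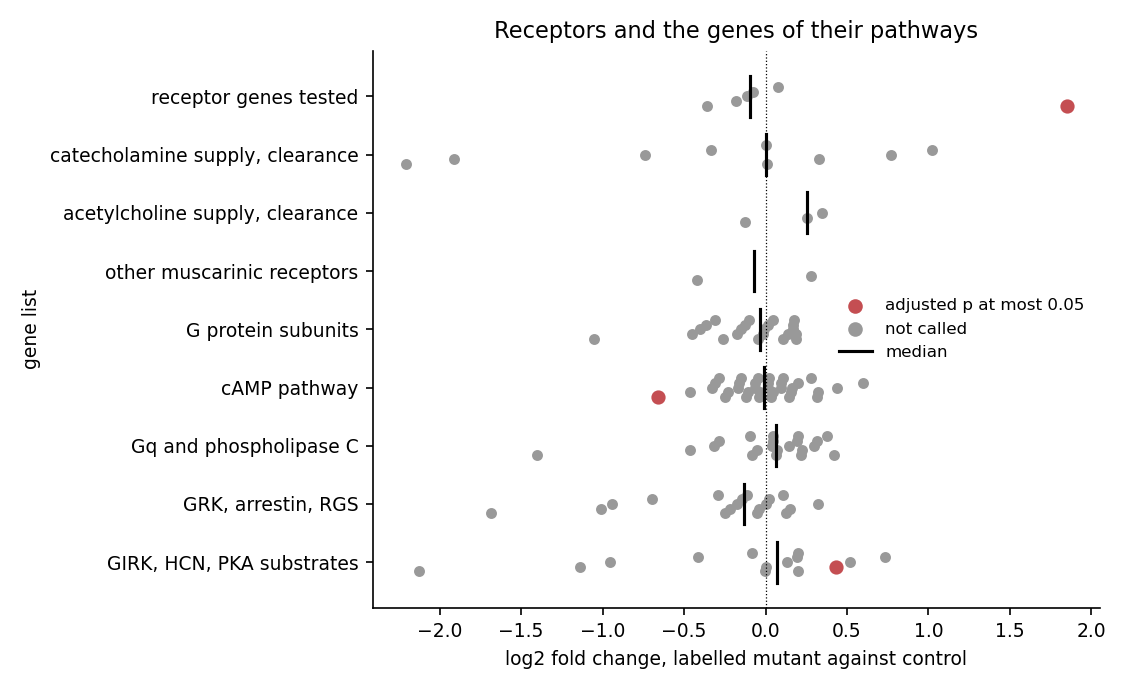
Log2 fold change, mutant against control, of the 6 tested receptor genes and of the tested genes of 8 lists around them (points, 1 per gene), with the median of each row as a black line and genes at an adjusted p of at most 0.05 in red. Adra1d at 1.85 stands apart from the other receptor genes, which lie between -0.36 and 0.07, and Pkig and Mybpc3 are the called genes of the lists.

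The authors' deposited table of 668 significant genes lists 14 of these pathway genes, 5 higher and 9 lower, 13 of which were not called by the edgeR test here. That is 11.4% of the 123, beside 4.55% of all genes tested. The lists were chosen with earlier results of these data known, and the authors' table rests on the same libraries. Both shares are therefore a description and not a test. Of the genes called here, Pkig is in the authors' list and Mybpc3 is not. Those given here are named for being in that table, after their values were seen. On the muscarinic side it gives Kcnj5, a GIRK channel subunit, at -0.96 and Rgs6, which speeds the switching off of Gi, at -1.69. In the CPM values computed here Kcnj5 was at 76.3, 91.6, 84.3, 50.2 and 88.1 in the controls, against 33.4 and 47.0 in the mutants (edgeR quasi-likelihood adjusted p = 0.0767). Rgs6 was at 14.98, 21.7, 19.1, 6.58 and 15.5 CPM in the controls and 4.16 and 5.51 CPM in the mutants (adjusted p = 0.0837, same test). In both genes control replicate 4 was the lowest control, yet both mutants lay below it.

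The same deposited table lists the pacemaker channel gene Hcn4 at -1.15. In the CPM values computed here Hcn4 was at 14.9, 26.8, 23.4, 7.97 and 16.6 in the controls and 7.53 and 8.70 in the mutants, so that mutant replicate 2 lay above control replicate 4 (edgeR quasi-likelihood adjusted p = 0.193). It also lists Pnmt, the enzyme that converts noradrenaline to adrenaline, at -2.21. The controls had 46, 78, 76, 22 and 67 Pnmt counts and the mutants 11 and 13, which did not overlap (edgeR quasi-likelihood adjusted p = 0.0586). In the authors' deposited table the genes listed as higher were Ddc (1.02), Maob (0.77), a monoamine oxidase, Cacna1c (0.73), the L-type calcium channel subunit, Pln (0.51), phospholamban, and Prkca (0.42), a protein kinase C downstream of Gq. By the edgeR quasi-likelihood test used here the adjusted p of Pln was 0.0974 and its log2 fold change 0.52 (SE 0.14). With DESeq2 Pln was called, at an adjusted p of 0.0144, and over the 17 alternatives its adjusted p ran from 0.0144 to 0.543.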

How the data were processed

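The members and gene lists were chosen with earlier results of these data known. The authors deposited raw counts of reads, 1 row per gene symbol. The submitters' processing notes name the build mm10, TopHat2 2.1.1, limma 3.30.13, edgeR 3.16.5, R 3.3.2 and featureCounts, without roles; annotation and strand setting are not given in the sources used. The authors' deposited list gives a log fold change (taken as log2, since it correlated at 1.00 with the log2 values computed here over 668 genes), the p-value and the false discovery rate, from a test that per the file headers is not named.

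Tests used edgeR 4.0.16 in R 4.3.3: filterByExpr (minimum count 10, minimum total 15; 14691 of 23337 genes kept), TMM factors (0.988 to 1.009), robust glmQLFit, then glmQLFTest on genotype without covariates, Benjamini-Hochberg adjustment over all tested genes, threshold 0.05. SE is the log2 fold change over the root of F; intervals are 95%. Log2 CPM used a prior count of 2. Alternatives used DESeq2 1.42.0 and limma 3.58.1. Methods were tested on simulated data. Exon lengths, overlaps and sequences came from GENCODE M21 (GRCm38). Figures used Python 3.11.15 and matplotlib 3.10.9.

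Named genes were the 9 receptors and, per pathway list, up to 4 called genes of largest change, or the most abundant tested genes until 2 were named, plus the 5 genes most like Adra1d, Chrm2 and Adra1b (mean of at least 1 CPM); some genes of the lists are counted but not reported here by name. Nothing in the labels ties replicate numbers to a litter or day.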

Additional observations from a re-analysis of the deposited data

How the results depend on the processing

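Of 17 alternatives, Adra1d kept its direction in all and its call in 15. With control replicate 5 and mutant replicate 2 both left out its log2 fold change was 1.92 (edgeR quasi-likelihood adjusted p = 0.0888) and the number of receptor genes called was 0. Leaving out single libraries gave 1.77 to 1.98 and 0 to 1 receptor genes called; the lost call was without mutant replicate 2, and fewer libraries were then tested. No other receptor gene was called under any alternative. The number of pathway genes called was 2, but 12 with DESeq2, 1 with limma-voom, 4 with no filter on low counts, 0 among libraries with Xist above 10 CPM, 0 with control replicate 5 and mutant replicate 2 both left out, and 0 to 9 with single libraries left out (9 without control replicate 4, 0 without control replicate 1 or 2 or mutant replicate 2). With the replicate block it was 14, Adra1d stayed called at 1.82 (adjusted p = 0.00915, edgeR), and Pln was called (0.0324, edgeR). The cause of these shifts was not tested. The numbers were not taken as pairs because the labels tie them to no litter or day. The deviations of same-numbered libraries correlated at 0.078 and 0.012. With 2 mutants these deviations mirror each other, so the correlations cannot show or exclude pairs. Over all genes 200 were called, 785 with DESeq2, 114 with limma-voom, 811 with the replicate block and 12 without mutant replicate 2.

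Some genes that were not called changed sign, among them Adra2b (-0.36), Chrm4 (-0.42) and Chrm3 (0.28). With the replicate block the log2 fold change was 0.35 for Adra2b, 0.033 for Ache and -0.015 for Adrbk1. With upper quartile scaling it was -0.024 for Adrbk1. With control replicate 5 and mutant replicate 2 left out it was -0.29 for Chrm3, 0.048 for Gnas, 0.069 for Gnai2, -0.019 for Prkar1a and -0.0092 for Rgs3. With single libraries left out the ranges were -0.33 to 0.076 for Adra1b, -0.18 to 0.30 for Adrb3, -0.31 to 0.049 for Ache, -0.54 to 0.77 for Chrm3, -1.10 to 0.012 for Chrm4, -0.046 to 0.036 for Gnas, -0.037 to 0.038 for Gnai2, -0.057 to 0.15 for Prkar1a, -0.0084 to 0.034 for Adrbk1 and -0.079 to 0.31 for Rgs3. The receptor level order in the controls kept 7 of 8 neighbour orders with the longest annotated transcript in place of all exons, where Adra2a and Adra1a exchanged places, and 8 of 8 with raw totals or any control left out. Of the neighbour pairs tested 0 passed, and 2 did when the adjustment, chosen after seeing the data, left out the pairs with Adra1d. Counts of 0 to 6 for Adra1a, Adra2a and Adra2c limit what this depth can show.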
